A study of Mus musculus with 4 samples.

Results

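Tcf4, Tcf12 and Tcf3 are the E-protein genes of the mouse, and the peaks of the histone mark H3K27ac at these 3 genes are described here. H3K27ac marks histone H3 at promoters and enhancers that are in use. The members were every peak of the replicated list that lay within 1000 bp of an annotated transcription start site (TSS) of the 3 genes, elsewhere in the genes, or within 200 kb of them. These were 191 of the 72027 peaks of that list: 115 at Tcf4, 25 at Tcf12 and 51 at Tcf3. The family was chosen by name and selected on the width of the Tcf4 promoter peak, which was already known, so widths, signals and counts of these peaks are given as a description, with no test.

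The tissue was left cerebral cortex from female adult mice of 2 months, of the hybrid strain B6CASTF1/J, a cross of C57BL/6J and CAST/EiJ, with no treatment and no second condition. The 4 samples were 2 pools, I and J, each of tissue from 4 biosamples, and each pool had 2 technical libraries. A pool has 1 peak list for both of its libraries, so the only replicate comparison is between 2 pools. Whole cortex holds many cell types, and a wide or high peak in a few cells cannot be told apart from a narrower or lower one in many.

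E proteins are basic helix-loop-helix (bHLH) transcription factors that bind a DNA motif called the E-box. They act as dimers, either with each other or with bHLH proteins that are limited to certain cell types, such as the NeuroD factors of neurons. The Id proteins, which lack the basic DNA-binding region, pair with E proteins and keep them from DNA. Tcf4 (also called E2-2 or ITF2) acts in neuronal development, and loss of 1 copy of human TCF4 causes Pitt-Hopkins syndrome. Tcf12 encodes HEB, and Tcf3 encodes E12 and E47, both known best from lymphocyte and neural development. None of the 3 is the HMG-box factor of Wnt signalling that also goes by the name TCF.

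Peak signals are those of the authors' caller, and values of the 2 pools are set side by side without a common scale. The pool J list was the smaller, with 49839 peaks against 69834 for pool I, and it covered 40.9 Mb against 74 Mb. The number of reads is not known, and a site missing from a list is not thereby free of acetylation. Markers of cortical cell types carried promoter peaks in the replicated list: 4 of 4 genes of excitatory neurons, 3 of 4 of inhibitory neurons, 3 of 4 of astrocytes, 3 of 4 of oligodendrocytes, 4 of 4 of microglia and 4 of 4 of endothelium. None of 6 genes of other tissues (Alb, Ckm, Ins2, Cd3d, Myh6 and Krt5) did. The share over all protein-coding genes was 58.5%, and each cell type list holds only 4 genes. The 3 inhibitory markers with a peak had signals of 3.07 to 3.87, and Cx3cr1 of microglia had no promoter peak in pool J.

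A promoter peak was present at all 3 E-protein genes in the replicated list, against 58.5% of 21755 protein-coding genes. They also had one in the list of each pool, against 54.7% of coding genes. Tcf3 had the highest promoter peak, with a signal of 25.2 in the replicated list, 31.1 in pool I and 18.7 in pool J. Tcf4 followed with 17.4, 20.8 and 14.4, and Tcf12 with 11.0, 13.4 and 9.75. The order Tcf3, Tcf4, Tcf12 was thus the same in both pools, although the highest Tcf4 value (pool I) lay above the lowest Tcf3 value (pool J). Among the 12719 coding genes with a promoter peak, whose median signal was 8.86, these values stood at percentiles 99.2, 92.9 and 65.8.

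Width gave another order. The widest promoter peak of Tcf4 had 16348 bp in the replicated list, 16362 bp in pool I and 8983 bp in pool J. That of Tcf12 had 1837, 1951 and 1791 bp, and that of Tcf3 had 1389, 1517 and 1329 bp. Tcf4 was above both other genes in each list, but the family was selected on the width of this Tcf4 peak. Its lead is therefore not independent of that choice. Tcf12 was above Tcf3 in each list, with 1 value per pool for each gene. The median over coding genes with a promoter peak was 1192 bp. Tcf3 therefore paired a promoter signal at percentile 99.2 with a width at percentile 59.9, while Tcf4 ranked 3 of 12719 by width and 909 by signal.

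**Figure D1:**
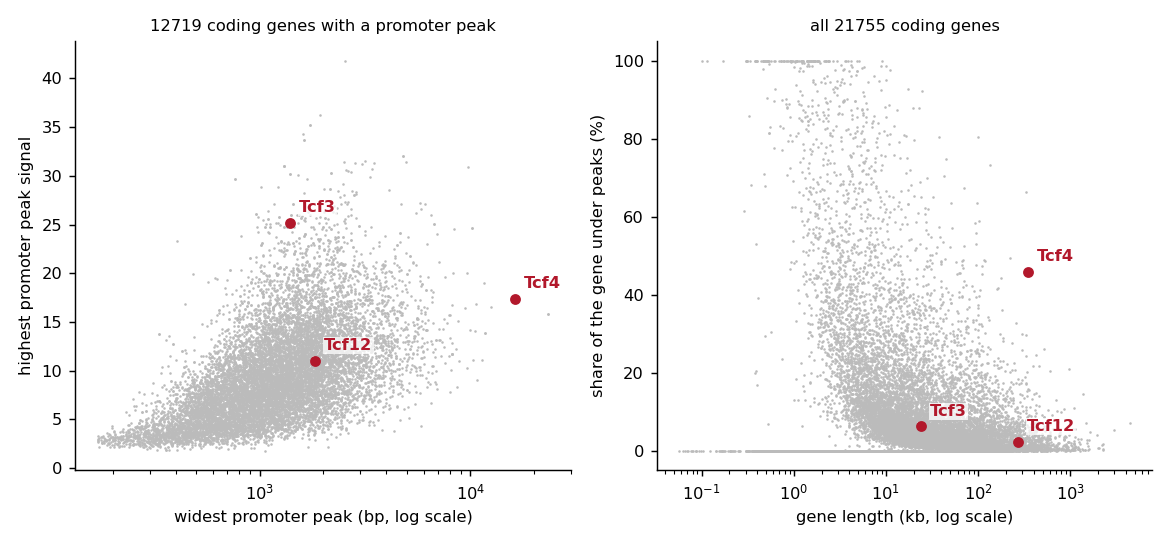
Left, the widest promoter peak (bp, log scale) against the highest promoter peak signal for the 12719 protein-coding genes with a promoter peak in the replicated list. Right, gene length (kb, log scale) against the share of the gene under peaks (%) for all 21755 coding genes. Each grey point is a gene and the red points are the 3 E-protein genes: Tcf4 lies at the right edge of the width axis and at 45.8% of a 346 kb gene, Tcf3 is high but of middling width, and Tcf12 lies inside the cloud in both panels.

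The genes also differed in how much of their length lay under peaks. Peaks covered 45.8% of Tcf4 in the replicated list, 54.1% in pool I and 31.9% in pool J. For Tcf12 the shares were 2.32%, 3.52% and 1.15%, and for Tcf3 6.22%, 11.7% and 5.66%. Tcf4 and Tcf12 are both long, at 346 and 269 kb, whereas Tcf3 has 24.1 kb. Of 337 coding genes between 0.8 and 1.25 times the length of Tcf4, the median share was 1.49%, and only Msra, at 66.3%, exceeded Tcf4. Tcf12 ranked 207 of 432 genes of like length, whose median was 2.09%, and Tcf3 ranked 670 of 2659, with a median of 2.84%. By covered length Tcf4 ranked 6 among all coding genes with 158385 bp, and by number of peaks in the gene it ranked 10 with 111. The covered length and share of Tcf4 include the promoter peak on whose width the family was selected.

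Tcf4 lies on the plus strand at chr18:69343356-69689079 (mm10, GENCODE vM21 basic) and has 24 basic transcripts from 22 TSSs. All 22 TSSs had a peak within 1000 bp, in the replicated list and in the list of each pool, against 58.9% of 41249 TSSs of coding genes in the replicated list. In the full set of GENCODE transcripts, looked up after the lists had been seen, all 58 TSSs of the gene were within 1000 bp of a replicated peak. No share over all coding genes is given for that full set. TSSs within 2000 bp of each other were joined here into 6 groups, numbered in the direction of transcription. Since TSSs of a group share peaks, they are not separate observations.

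Group 1 holds 14 transcripts that start between 69344146 and 69348523 and encode proteins of 178 to 692 amino acids. Its highest peak had a signal of 12.8 in the replicated list, 14.4 in pool I and 10 in pool J. The longest protein of each group further in was shorter than the longest of group 1, although the 178 amino acids of Tcf4-210, in group 1, were the fewest. Group 2, with 1 transcript at 69415897 for 587 amino acids, was the lowest, at 5.95, 8.77 and 3.54. Group 3, with 1 transcript at 69500697 for 537 amino acids, had 9.85, 13.7 and 5.22. The pool J signal was 0.404 times the pool I signal at group 2 and 0.381 times at group 3. At the other 4 groups it was between 0.692 and 0.801 times. Over the 40346 replicated peaks found in both pools the median was 0.708, and 2.99% and 2.26% of these peaks had a lower ratio than groups 2 and 3. Groups 2 and 3 were therefore the TSS groups on which the pools differed most, as seen after their values were known.

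Group 4 holds 5 transcripts between 69519479 and 69521861 for 537 to 541 amino acids, and had signals of 11.3, 15.4 and 10.8. Group 5 holds 2 transcripts, at 69592988 and 69593426, for 511 and 507 amino acids, and had the highest promoter signal of the gene in each list: 17.4, 20.8 and 14.4. Group 6, with 1 transcript at 69612444 for 507 amino acids, had 7.16, 8.8 and 7.05. Group 5 led and group 2 came last in all 3 lists. The order between them was not fixed: groups 1 and 4 changed places between the replicated list and both pools, and group 3 lay above group 6 in pool I and below it in pool J.

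The same groups differed in peak width. The widest peak of group 5 was the one of 16348 bp, at chr18:69587903-69604250, and the list of pool J held 6 peaks over that interval that together covered 94.7% of it. The widest of these pieces had 8983 bp. Group 4 had 8068 bp in the replicated list, 11383 in pool I and 3719 in pool J, and group 1 had 6001, 8857 and 2597 bp. Groups 3, 6 and 2 were narrower, with 2539, 3103 and 1808 bp in the replicated list.

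**Figure D2:**
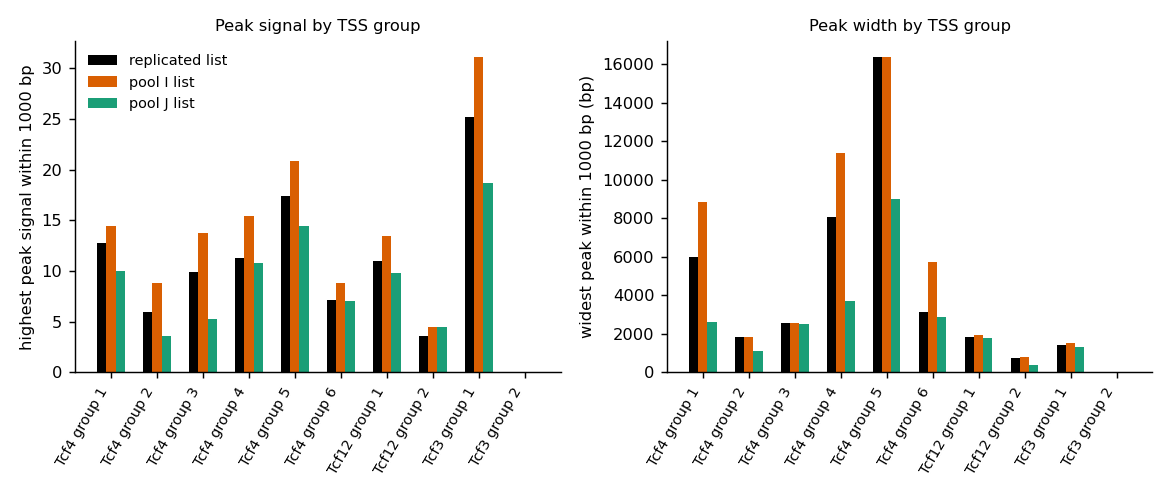
The highest peak signal (left) and the widest peak in bp (right) within 1000 bp of each TSS group, with bars for the replicated list, pool I and pool J and both axes from 0. Group 5 of Tcf4 is the widest in each list and group 1 of Tcf3 the highest, while group 2 of Tcf3 has no bar because no list holds a peak there.

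The highest peak of Tcf4 was not at an annotated basic TSS. It lay at chr18:69573695-69578758, had 5064 bp and a signal of 17.8 in the replicated list, and reached 20.0 in pool I and 15.7 in pool J. In pool J it was higher than the group 5 promoter, and in pool I lower, so the order of these 2 peaks was not settled by the pools. A second peak without a basic TSS, at chr18:69559009-69570128, had 11120 bp and a signal of 11.4, with 9.09 in pool J. The pool I list had 1 peak of 14530 bp there, with a signal of 15.6, which also spanned the next replicated peak, of 2094 bp and a signal of 12.7. When peaks 500 bp or less apart were joined, a step added after the lists were seen, both fell in 1 block of 23120 bp made of 7 peaks. That block ranked 17 of 48799 blocks by length. In pool I it had 23528 bp, but in pool J the 2 peaks fell in separate blocks, of 13856 and 3965 bp. The full annotation places 2 non-coding transcripts of Tcf4 there and no basic one. The block around groups 5 and 6 had 26739 bp and ranked 11. It contains the peak on whose width the family was selected, so its length is not independent of that choice. In pool I it had 32472 bp, and in pool J it was split into 16393 and 9717 bp.

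The share of Tcf4 under peaks was highest in its later part. Between the start of group 5 and that of group 6, a stretch of 19.5 kb, peaks covered 96.4% in the replicated list, 96.7% in pool I and 89.4% in pool J. From group 4 to group 5, over 73.5 kb, they covered 71.4%, 79.2% and 55.9%, and from group 3 to group 4 69.4%, 73% and 54.3%. The stretch from the gene's start to group 2 had 25.9%, 34.1% and 15.3%, and that from group 2 to group 3, the lowest, had 20.5%, 29.4% and 8.73%. The last 76.6 kb, from group 6 to the end of the gene, had 49.5%, 60.5% and 30.1%. In all 3 lists the stretch between groups 5 and 6 was highest and that between groups 2 and 3 lowest. The peak of 16348 bp, on whose width the family was selected, lies across the start of group 5. The shares of the stretches on either side of that start are therefore not independent of that choice.

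**Figure D3:**
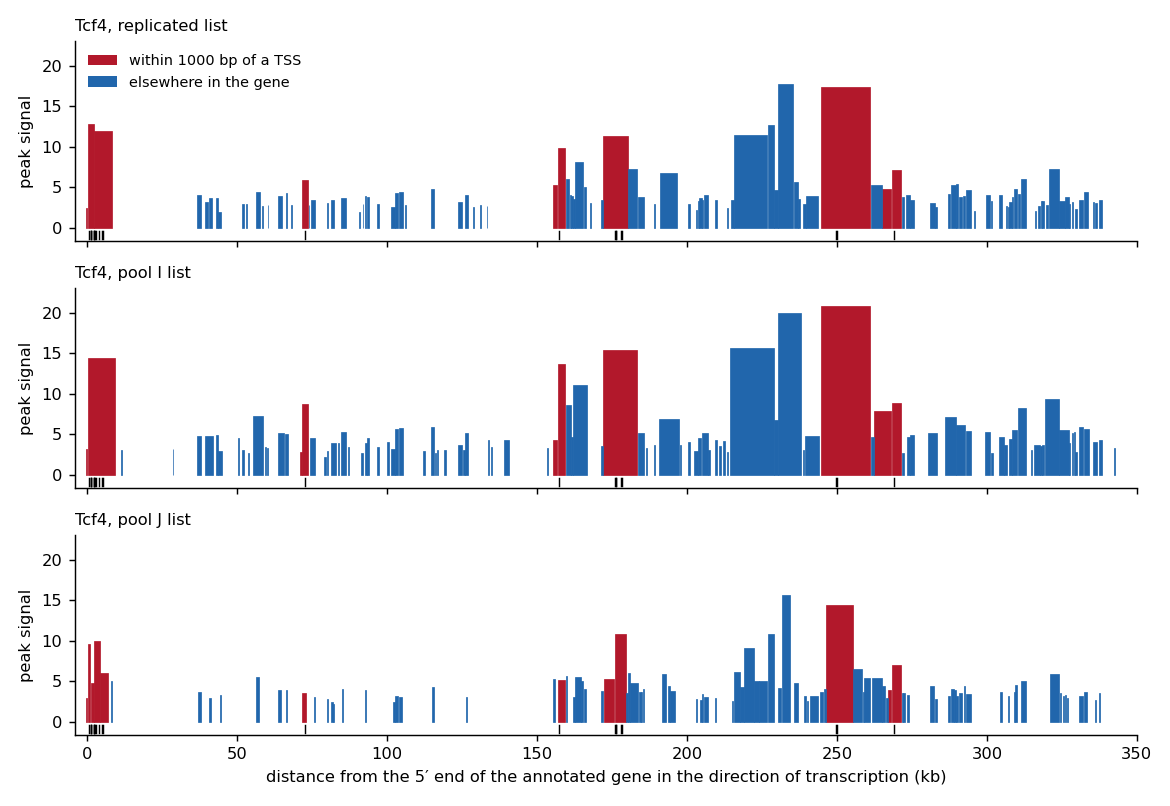
Peaks along Tcf4 in the replicated list, pool I and pool J, each drawn from its start to its end, in kb from the 5′ end of the annotated gene, with the peak signal as its height. Black ticks are the 22 TSSs. Red peaks lie within 1000 bp of a TSS and blue ones do not, and the tall blue peak before group 5 is the one with a signal of 17.8 in the replicated list.

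Of the 101 Tcf4 peaks that were in the gene and at no TSS, the median signal was 3.46 and the median width 768 bp, close to 3.67 and 597 bp over all replicated peaks. For the 10 peaks at TSSs these medians were 8.51 and 2708 bp. Of the 101 peaks, 50 had a −log10 q of at least 5, against 9 of the 10 at TSSs, with no share over all replicated peaks given. All 10 TSS peaks overlapped a peak in both pool lists, as did 57 of the 101 others. Over all 115 Tcf4 peaks the share was 60%, against 56% of all replicated peaks. A further 34 had a match only in the pool I list, 1 only in that of pool J, and 11 had no match.

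Outside the gene Tcf4 had few peaks. The 200 kb on either side held no coding gene, and 4 peaks. The highest lay 144221 bp upstream, at chr18:69197975-69199135, with a signal of 8.66 in the replicated list and 6.4 in pool J. The pool I list joined it with the next peak into 1 of 2629 bp with a signal of 11.5. Both peaks of that pair lay within 1000 bp of a TSS of a non-coding gene. The other 2 peaks were downstream, 105361 and 145298 bp from the gene, with signals of 3.62 and 4.67. The nearest peak beyond the limit of 200 kb was at 204 kb, with 342 bp and a signal of 3.17.

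**Figure D4:**
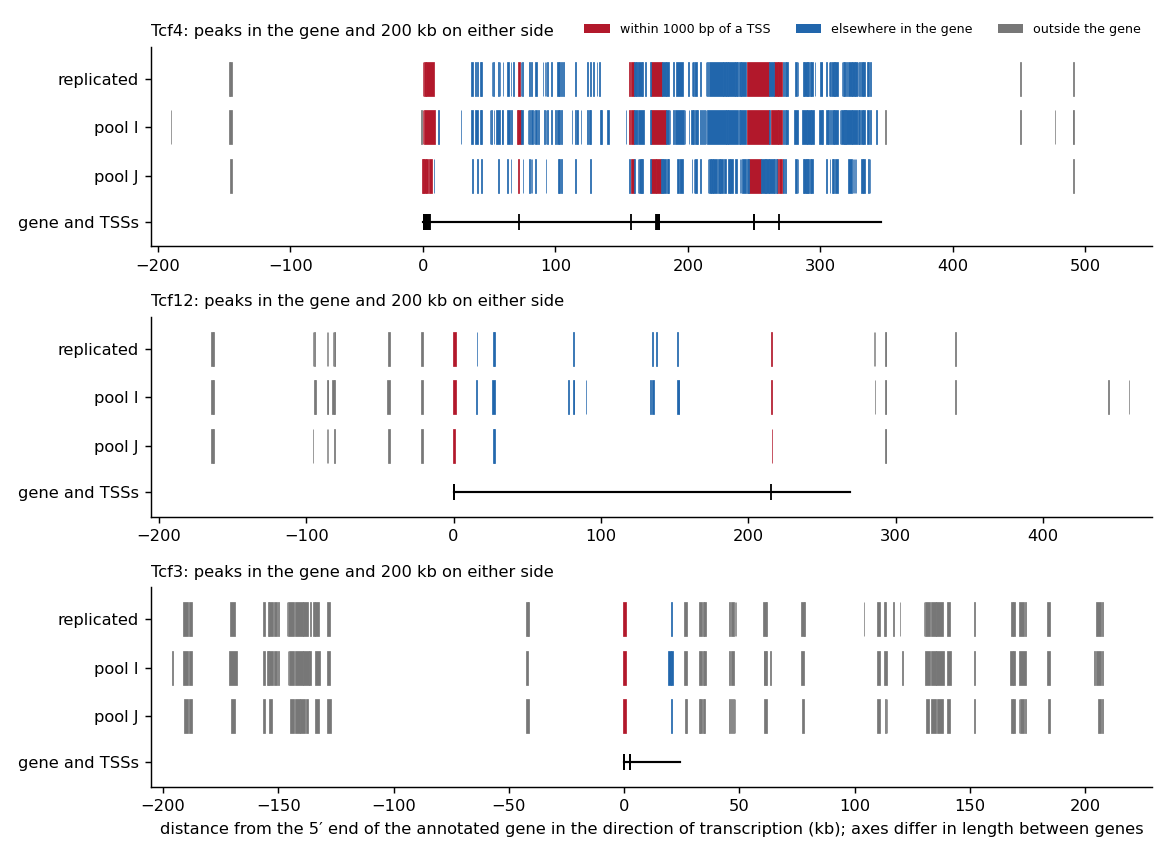
Peaks in each E-protein gene and 200 kb on either side, in the replicated list and in the list of each pool, against the distance from the 5′ end of the annotated gene in kb in the direction of transcription. The line below marks the gene and its TSSs, and the 3 axes differ in length. Tcf4 is filled from group 3 onward and almost bare outside, Tcf12 holds scattered peaks, and nearly all peaks around Tcf3 lie outside the gene.

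Tcf12 lies on the minus strand at chr9:71842688-72111871 and has 5 basic transcripts from 5 TSSs, all with a peak within 1000 bp in each list. Of these, 4 start between 72111651 and 72111871, encode 682 or 706 amino acids and share the peak at chr9:72110534-72112370. The fifth, Tcf12-207, starts 215 kb further in, at 71896396, and encodes 536 amino acids. Its peak, at chr9:71895700-71896423, had 724 bp and a signal of 3.57 in the replicated list, 4.5 in pool I and 4.45 in pool J. The outer promoter was above it in each list, at 11.0, 13.4 and 9.75. The inner peak was near the median of all replicated peaks, at percentile 47 by signal.

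The highest peak around Tcf12 lay outside the gene. It was 20707 bp upstream, at chr9:72132578-72134184, with 1607 bp and a signal of 11.1 in the replicated list, 13.7 in pool I and 12 in pool J. In each list it was above the promoter peak of the gene, and the gap was small in the replicated list and pool I. No TSS of the basic annotation lay within 1000 bp of it. Of the 7 peaks in the gene and at no TSS, the highest was at chr9:72084357-72085403, 26.9 kb from the outermost TSS, with a signal of 4.01, and with 4.01 in pool I and 3.83 in pool J. Of these 7, 2 overlapped a peak in both pools, or 28.6%, against 56% of all replicated peaks, and 4 were in pool I alone.

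The base composition of these Tcf12 sites separates them, and the sequences that show it are given below with the promoter of Tcf3. They were read from the RefSeq sequence of GRCm38.p6 on the minus strand, the coding strand of both genes, with every CG dinucleotide in capitals. The 3 promoter windows are the 240 bases before the outermost TSS of a group, and the 2 others are 201 bases around a peak summit. None overlaps an annotated exon. Their positions, in order, are chr9:72111872-72112111, chr9:72133079-72133279, chr9:71896397-71896636, chr9:72084919-72085119 and chr10:80433648-80433887.
Tcf12 outer promoter: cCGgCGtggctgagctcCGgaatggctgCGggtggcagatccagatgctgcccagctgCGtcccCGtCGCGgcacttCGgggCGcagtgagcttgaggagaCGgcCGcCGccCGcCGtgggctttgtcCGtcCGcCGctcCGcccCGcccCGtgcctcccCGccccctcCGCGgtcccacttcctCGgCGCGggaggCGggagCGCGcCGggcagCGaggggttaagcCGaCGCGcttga
Tcf12 upstream peak: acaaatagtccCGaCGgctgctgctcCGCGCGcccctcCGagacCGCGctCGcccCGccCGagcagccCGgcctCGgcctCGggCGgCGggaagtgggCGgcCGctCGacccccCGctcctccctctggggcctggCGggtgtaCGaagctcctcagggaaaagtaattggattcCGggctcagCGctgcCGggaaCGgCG
Tcf12 inner promoter: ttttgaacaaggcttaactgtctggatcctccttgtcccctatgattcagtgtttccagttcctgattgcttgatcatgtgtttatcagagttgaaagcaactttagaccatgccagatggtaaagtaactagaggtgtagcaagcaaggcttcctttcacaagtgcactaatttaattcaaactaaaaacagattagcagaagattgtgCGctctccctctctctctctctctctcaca
Tcf12 intronic peak: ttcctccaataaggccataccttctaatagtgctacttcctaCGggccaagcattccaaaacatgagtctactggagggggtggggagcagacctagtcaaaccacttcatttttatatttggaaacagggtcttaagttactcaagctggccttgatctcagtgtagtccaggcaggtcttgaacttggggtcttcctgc
Tcf3 promoter: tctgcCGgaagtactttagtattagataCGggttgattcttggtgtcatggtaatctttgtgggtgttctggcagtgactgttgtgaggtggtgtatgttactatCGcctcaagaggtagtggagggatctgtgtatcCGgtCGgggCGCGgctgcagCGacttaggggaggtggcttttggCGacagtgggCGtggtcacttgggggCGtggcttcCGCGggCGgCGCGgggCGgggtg

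The outer promoter window of Tcf12 held 35 CG dinucleotides and the upstream peak 27, while the inner promoter and the intronic peak held 1 each. The ratio of observed to expected CG was 1.01 in the windows of the outer promoter, the upstream peak and the Tcf3 promoter, and 0.0997 and 0.0891 in the inner promoter and the intronic peak. The Tcf3 promoter reached this ratio with 17 CG and 58.3% G and C, against 75.8% in the outer promoter of Tcf12. Over whole peaks the ratio was 0.934 at the outer Tcf12 promoter, 0.819 at the Tcf3 promoter, 0.672 at the upstream peak and 0.0424 at the inner promoter. These stood at percentiles 98.7, 95.5, 88.5 and 3.75 of all replicated peaks, whose median was 0.248. The upstream peak thus had a base composition nearer to that of peaks at promoters, with a median of 0.591, than to that of other peaks, with 0.204.

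At Tcf4 the CG ratio of the 10 TSS peaks ran from 0.202 to 0.719, and only the peak over the outermost TSSs was above the median of promoter peaks. The widest peak, at group 5, had 0.345, and the highest, without a basic TSS, had 0.334.

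Around Tcf12, 16 peaks lay outside the gene within 200 kb, and 3 of these were at promoters of the 2 coding neighbours, Cgnl1 and Zfp280d. Over all 25 Tcf12 peaks 13, or 52%, overlapped a peak in both pools, near the 56% of all replicated peaks. The covered length in the gene was 3.05 times as high in pool I as in pool J, against 1.69 times for Tcf4, 2.07 times for Tcf3 and 1.81 times for all peaks. The nearest peak beyond 200 kb lay at 356 kb, and the last one inside at 163 kb.

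Tcf3 lies on the minus strand at chr10:80409514-80433647 and has 10 basic transcripts from 7 TSSs. Of these, 5 TSSs, between 80433621 and 80433647, share the peak at chr10:80432671-80434059. The other 2 TSSs, at 80431012 and 80431082, had no peak within 1000 bp in any list. They were the only basic TSSs of the 3 genes without one, and with a window of 2500 bp all 7 had a peak. In the full annotation 5 of 11 Tcf3 TSSs had a peak, and 16 of 20 of Tcf12. No share over all coding genes is given for the full annotation, and TSSs that share a peak are not separate observations. The proteins of both groups are alike in length, with 648 to 653 amino acids from the outer and 645 and 648 from the inner TSSs.

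The only other peak in Tcf3 was at chr10:80412783-80413307 and overlapped an exon, with 525 bp and a signal of 3.27 in the replicated list, 4.3 in pool I and 3.34 in pool J. Tcf3 stands in a dense stretch of genes, with 23 coding neighbours within 200 kb. Of the 49 peaks outside the gene, 27 were at promoters of other coding genes. The highest were at Rexo1, with a signal of 22.5, and at Mbd3, a subunit of the NuRD chromatin remodelling complex, with 20.1. The promoter peak of Tcf3 itself, at 25.2, was above all of these in the replicated list, and in both pools as well, although by little in pool J, where it had 18.7 and the Mbd3 peak 18.6. Of all 51 Tcf3 peaks 70.6% overlapped a peak in both pools, against 56% of all replicated peaks.

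E-boxes were looked for as the letters CAGCTG and CAGGTG (its other strand reads CACCTG), which E proteins are known to bind. Within 100 bp of the summit, 53 of the 191 peaks, or 27.7%, held either, against 26.9% of all replicated peaks, so the share was near the background. By gene it was 24.3% at Tcf4, 16% at Tcf12 and 41.2% at Tcf3. At Tcf3 the matches were all in 21 of the 49 peaks outside the gene, and neither of the 2 peaks in the gene had one. The looser form CANNTG, which includes both, was found near 68.6% of the summits, against 64.3%. The outer promoter window of Tcf12 printed above holds 1 CAGCTG, which begins 188 bases before the TSS. A match is a description of the letters and not a bound site.

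The 4 Id genes, which encode the inhibitors of E proteins, all had a promoter peak, against 58.5% of coding genes, but each was lower than that of any E-protein gene. Their signals were 8.87 for Id2, 7.14 for Id3, 6.39 for Id1 and 5.46 for Id4, against 11.0 for Tcf12. In pool I Id2 reached 13.2, just under the 13.4 of Tcf12, and in pool J it had 6.42 against 9.75.

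Of 20 neural bHLH genes, most of whose products pair with E proteins, 9 carried a promoter peak. The highest were Neurod2, a factor of excitatory neurons, with a signal of 12.6, Bhlhe22 with 11 and Neurod6 with 10.8. Lower peaks were found at Atoh7, Neurod1, Olig1, Olig2 and Atoh8, among others, and that of Atoh8 had 2.87 and was in neither pool list. Neurod4, Neurog1, Neurog2, Neurog3, Ascl2, Atoh1, Bhlhe23, Nhlh1, Nhlh2, Olig3 and Ptf1a had none in the replicated list, although Nhlh1 had one in pool I, with a signal of 4.3. The share of 45% was below the 58.5% of all coding genes. Of 21 other bHLH genes, most but not all of them of blood, muscle or other mesoderm, 3 had a promoter peak. That is 14.3%, against 58.5% of all coding genes. These were Msc with 7.46, Lyl1 with 6.36 and Tal1 with 5.96. The 18 without one were the muscle genes Myod1, Myf5, Myf6 and Myog, and Tal2, Twist1, Twist2, Hand1, Hand2, Tcf15, Tcf21, Tcf23, Tcf24, Scx, Mesp1, Mesp2, Ferd3l and Bhlha15.

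All 15 cofactor genes had a promoter peak in each list, against 58.5% of coding genes in the replicated list and 54.7% in both pools. Calm3, which encodes calmodulin, a protein that can bind the bHLH region of E proteins, had a signal of 29.9, and the acetyltransferase gene Ep300 had 26.3. The LIM-domain partner Lmo4 had 14, and Runx1t1, of the ETO family of corepressors, had 12.2. The 4 HMG-box genes with a similar name all carried a replicated promoter peak, again against 58.5%, and 3 of them in pool J, where Tcf7 had none. Their signals ran from 3.37 for Tcf7 to 4.76 for Lef1, which is lower than any of the E-protein genes in the replicated list.

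**Figure D5:**
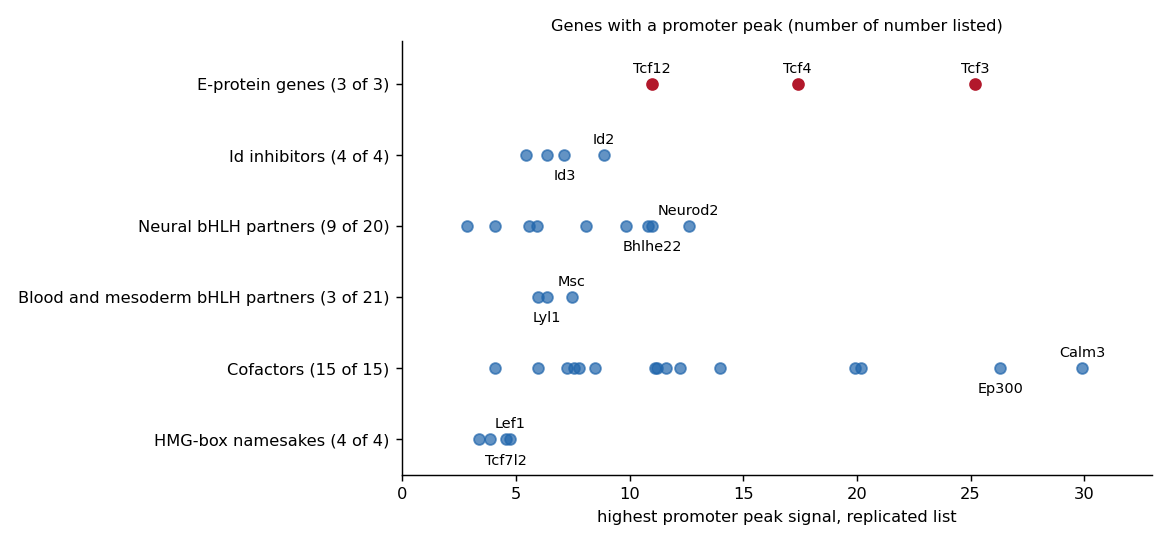
The highest promoter peak signal in the replicated list for the 3 E-protein genes (red) and for the genes of 5 lists that had a promoter peak (blue), with the number of genes with a peak and the number listed beside each name. The 2 highest genes of each list are named. All Id and HMG-box genes lie below Tcf12, the lowest E-protein gene, while 4 cofactor genes lie above Tcf4.

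The overall pattern of each E-protein gene was set beside those of all other coding genes. Likeness was the distance between percentiles of 4 measures (widest promoter peak, promoter signal, number of peaks in the gene and share covered) in 2 pool lists, 8 values in all, over 11906 coding genes. The nearest genes to Tcf4 were Lingo1, a regulator of myelination and axon growth, at a distance of 2.08, Zeb2 at 6.62 and Pitpnm2 at 6.95. Lingo1 had 62 peaks in a gene of 178 kb and 44.3% of it covered. Nearest to Tcf12 were Stxbp6 at 10.6, Tacc2 at 13.5 and Fam135b at 14.1, and nearest to Tcf3 were Inpp1 at 19.8, Zfp1 at 20.1 and Alas1 at 20.4. Tcf4 was 113 from Tcf12 and 86.3 from Tcf3, and Tcf12 was 82 from Tcf3. Counted by nearness to Tcf4, Tcf3 stood at rank 1533 and Tcf12 at rank 3004, so neither was among its nearest genes, while most genes were further away.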

How the data were processed

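H3K27ac ChIP-seq of 4 samples (2 pools of cortex, each with 2 libraries) was taken from 4 peak lists that the authors deposited on mm10, 1 replicated list and 1 pseudoreplicated list from both pools and 1 pseudoreplicated list per pool. In the deposited lists each peak has a signal, which the authors' peak caller gave, and a −log10 q against its background. They also hold the summit, another value per peak given as an offset in bp. The aligner, caller, versions, normalization and depth were not given in the sources used here. In a hybrid genome, CAST/EiJ reads can map less well to mm10.

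Computed here, with Python 3.11.15, pandas 2.3.3 and numpy 2.4.6, were overlaps of at least 1 bp with GENCODE vM21 basic genes on 19 autosomes and X, covered lengths and percentiles. The overlap, covered-length and motif searches were tested on simulated data. The members and gene lists were chosen with earlier results of these data known. The text names the widest, highest and most distant peaks per gene, the 2 to 4 highest genes of each list and those without a peak. TSS groups, joined blocks, genes of like length and the full annotation were added after the lists were seen.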

Additional observations from a re-analysis of the deposited data

How the results depend on the processing

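Values were recomputed with other peak lists, windows and thresholds. No paired analysis was possible because each pool has 1 list for both of its libraries and no test was made. Of 142 alternative values, 116 stayed within the spread between pools, the counting interval of a share or 1.5 times a count, and 26 moved. That spread came from the same pool lists that also served as alternatives, so for such values the outcome was partly fixed. All basic transcripts of the member genes are protein-coding, so keeping these alone could change nothing. The 116 are therefore not a measure of robustness. Both other promoter windows (500 and 2500 bp) moved none of the 34 values they gave beyond these limits. Some counts still changed: the Tcf3 TSSs with a peak rose from 5 to 7 at 2500 bp. The HMG-box genes with a promoter peak fell from 4 to 3 at 500 bp. With a −log10 q of at least 5, the peaks inside the gene and away from TSSs fell to 50 at Tcf4, 2 at Tcf12 and 0 at Tcf3, and those outside Tcf12 to 9. The share of peaks in both pools then came to 82.5% at Tcf4, 83.3% at Tcf12 and 94.1% at Tcf3. No share over all replicated peaks is given at this limit, so these rises cannot be read as a trait of the 3 genes. An overlap of 50% of both peaks left 27% of Tcf4 peaks, 40% of Tcf12 peaks and 56.9% of Tcf3 peaks in both pools. For this setting too no share over all replicated peaks is given. A wide peak that 1 pool list splits into pieces can fail it although the pieces cover most of the peak. Outside Tcf4 the pseudoreplicated list from both pools had 9 peaks. Within 100 kb of the gene there were 0 peaks outside Tcf4 and 20 outside Tcf3, and within 50 kb 0 at Tcf4, 6 at Tcf12 and 12 at Tcf3. E-box letters were within 50 bp of 13.1% of member summits and 15.1% of all summits, and in 65.4% and 58.9% of whole peaks. With each pool left out in turn, the widest promoter peak ranged from 8983 to 16362 bp at Tcf4 and from 1791 to 1951 bp at Tcf12. Peaks outside the gene ranged from 2 to 8 at Tcf4 and from 10 to 16 at Tcf12. Peaks inside the gene and away from TSSs ranged from 2 to 10 at Tcf12 and from 1 to 2 at Tcf3, and the covered length of Tcf3 from 1367 to 2834 bp. The cause was not tested.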
